A study of Rattus norvegicus with 89 samples.

Results

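Gentamicin and tobramycin were compared directly in the rat kidney, in 24 of the 89 arrays of a study of kidney toxicants. Members were chosen by the compound named in the sample titles: 12 arrays from gentamicin rats and 12 from tobramycin rats, each compound with 6 rats after 1 day and 6 rats after 5 days of daily dosing. No saline arrays enter any comparison here, so every value is a difference between the 2 drugs and not a response to either. The animals were Crl:CD(SD) Sprague-Dawley rats of both sexes, 7 to 8 weeks old at the start and housed singly. Every group held 3 males and 3 females. RNA came from pieces of the apical part of the left and right kidney, homogenized together for each animal, and each rat gave 1 array. The RNA of all cell types was mixed, so fewer cells of a type and less RNA per cell cannot be told apart. The labels give no dose, route or hour of sampling, so it is not known whether the drugs were compared at matched doses. This 1 pair of compounds was compared on each day and over both days.

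Gentamicin and tobramycin are aminoglycoside antibiotics, positively charged amino sugars joined to a central deoxystreptamine ring. Gentamicin is a mixture of closely related congeners that carry N-methyl groups, and tobramycin belongs to the kanamycin family and lacks them. Both are filtered in the glomerulus and taken into proximal tubule cells by the endocytic receptors megalin (Lrp2) and cubilin (Cubn). They gather in lysosomes, where they bind phospholipids and slow their breakdown, and this uptake underlies their known toxicity to the kidney. When unfolded proteins build up in the endoplasmic reticulum (ER), cells raise the chaperones of that compartment: the sensor Atf6 and the factor Xbp1 act through the ER stress response element in chaperone promoters, and Atf4 acts through a separate branch.

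Hspa5, which encodes the ER chaperone BiP, was 1 of the 2 genes that passed the test, so promoter sequences of ER chaperone genes are shown first. The 250 bases before the start of Hspa5, on the plus strand at chr3:38452766-38453015 of RefSeq's GRCr8, hold 1 copy of the element, with 24 bases between its end and the start. Capitals mark the element, which was searched as CCAAT, 9 bases of any kind and then CCACG, on either strand.
Hspa5: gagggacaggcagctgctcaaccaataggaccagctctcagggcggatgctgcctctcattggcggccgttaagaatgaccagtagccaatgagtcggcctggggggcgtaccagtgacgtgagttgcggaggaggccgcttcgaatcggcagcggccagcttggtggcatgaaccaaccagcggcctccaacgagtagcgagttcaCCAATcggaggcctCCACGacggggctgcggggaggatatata

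The same element stood in the promoters of 6 of the 23 genes of the ER stress list that had an entry in RefSeq's promoter table, which is 26.1%. It stood in 21 of the 27457 genes that have an entry there (0.0765%), and in 15 of the 9503 such genes that were tested (0.158%). The list was chosen for genes of this response, and the element is known from chaperone promoters. Its higher share in the list therefore follows in part from that choice and says nothing about the drugs. The windows searched ran from 250 bases before to 50 bases after the start. For the other 5 genes, the element is shown with up to 20 bases on each side, read on the gene's strand, so that the spacing of its parts can be compared. Hsp90b1 held 2 copies, of which the one nearer the start is shown, and its gene lies on the minus strand. Sequences that carry the element on the opposite strand read as CGTGG, 9 bases and ATTGG.
Hsp90b1 (chr7:23012327-23012385): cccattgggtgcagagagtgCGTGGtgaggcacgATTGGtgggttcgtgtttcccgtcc
Creld2 (chr7:121789219-121789277): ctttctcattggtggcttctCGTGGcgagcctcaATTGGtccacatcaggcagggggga
Xbp1 (chr14:84604538-84604596): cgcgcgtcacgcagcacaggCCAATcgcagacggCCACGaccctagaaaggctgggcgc
Dnajc3 (chr15:102432514-102432572): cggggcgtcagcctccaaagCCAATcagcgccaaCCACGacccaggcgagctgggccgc
Calr (chr19:40213117-40213173): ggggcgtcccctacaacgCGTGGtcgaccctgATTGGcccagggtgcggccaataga

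A few arrays stood apart from the rest. Before scaling, the trimmed mean signal of the 24 arrays ran from 130 to 334, and 3 gentamicin arrays (2F112 and 2M10 at day 1, 2M15 at day 5) lay above 250, while the highest tobramycin array was at 180. At day 1, 4 of 6 gentamicin rats (2F111, 2F112, 2M11 and 2M12) and 1 tobramycin rat (4M28) had an albumin (Alb) signal over 500, and no rat of day 5 did. Albumin and the other genes of a list of 16 genes made mainly by the liver, chosen after the values were seen, moved together: their summed signal was 209 to 9000 (median 3115) with gentamicin at day 1 and 167 to 1860 (median 229.8) with tobramycin. At day 5 the sums were 152 to 590.3 with gentamicin and 159.1 to 347 with tobramycin. All 16 genes were higher with gentamicin at day 1, by a median log2 of 1.42, and 14 of 16 at day 5, by a median of 0.05; without the 5 rats the day 1 median was 0.14. Rat 2F114 is titled as 5 days of gentamicin, while its treatment text says untreated. Its title was followed. Hspa5, Nckap5l and the ER stress list are given with and without each of these sets of rats. Without the 5 rats of high albumin, 2F110 and 2M10 are the only gentamicin rats left at day 1. Every day 1 value of such a fit rests on them for gentamicin. A call lost there cannot be told apart from the smaller number of rats.

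Few genes separated the compounds, and the estimates of those that did were under 2-fold over both days. Of 11415 genes, 2 passed an adjusted p of 0.05 over both days (0.0175%; limma, Benjamini-Hochberg), both higher with gentamicin: Nckap5l, a protein of microtubule ends, and Hspa5. At day 1 no gene passed (0%; smallest adjusted p 0.238 with limma), and 410 genes (3.59%) were higher and 416 (3.64%) lower with gentamicin at an unadjusted p under 0.05. At day 5 no gene passed either (0%; smallest adjusted p 0.137 with limma), and 334 (2.93%) were higher and 329 (2.88%) lower at that unadjusted limit. Over both days these counts were 600 (5.26%) and 565 (4.95%). The share of all genes with a higher estimate in gentamicin rats, of any size, was 46.6% at day 1, 49.4% at day 5 and 47.7% over both days. Every count of gene list members below is to be read against these shares. The share of all genes whose groups did not overlap, or whose rats all lay on the same side of a median, was not counted. Intervals of list scores below are not adjusted for the number of lists.

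Each interval bounds the difference of a single gene in scaled signal, on a log2 scale that understates fold changes of dim genes. Scaling removes any shift shared by all genes, and separate 95% intervals are not a joint bound on the kidneys. Over both days the 95% interval of the difference lay within 2-fold either way for 11349 of 11415 genes (99.4%) and within 1.5-fold for 96.4%. Within 1 day, 98.1% of genes at day 1 and 98.5% at day 5 had an interval within 2-fold, and 89.8% and 89.3% within 1.5-fold. An estimate past 2-fold was found for 19 genes at day 1, of which 15 belonged to the list of liver transcripts. At day 5 it was found for 8 genes, none of them on that list (0 of 8). Over both days the 3 such genes were Alb, Rup2, which is also on that list, and Dmrtc1c1. A gene that missed the test is not thereby shown to be the same in both groups.

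Hspa5 was higher in gentamicin rats on both days. At day 1 its scaled signal was 3229 at the lowest, 3613 at the median and 4183 at the highest with gentamicin, against 2368, 3041 and 3341 with tobramycin. At day 5 it was 2857, 3361 and 3936 with gentamicin against 2502, 2690 and 2900 with tobramycin. The groups touched at their edges on each day, and all 12 gentamicin rats lay above the median of the tobramycin rats of their day. The log2 difference was 0.30 at day 1, 0.34 at day 5 and 0.32 ± 0.06 (SE, n = 12 per compound) over both days, a 1.25-fold difference with a 95% interval of 1.15 to 1.35 (limma adjusted p = 0.0413). Without the 5 rats of high albumin the difference was 0.35 and the limma adjusted p 0.167. Without the 3 bright arrays it was 0.33 with a limma adjusted p of 0.15, without rat 2F114 it was 0.35 with a limma adjusted p of 0.00484, and across single left-out rats it ran from 0.29 to 0.35 with limma adjusted p from 0.00484 to 0.101. Hspa5 passed in only 6 of the 24 fits with 1 rat left out.

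Nckap5l differed more, at a lower level. With gentamicin its signal was 108, 154 and 286 (lowest, median, highest) at day 1 and 111.2, 176 and 258 at day 5. With tobramycin it was 81.3, 110.6 and 118 at day 1 and 58.7, 75.4 and 100.5 at day 5. The groups overlapped at day 1 and did not at day 5, where every gentamicin rat lay above every tobramycin rat. The log2 difference was 0.55 at day 1, 1.02 at day 5 and 0.78 ± 0.13 (SE, n = 12 per compound) over both days, or 1.72-fold with an interval of 1.42 to 2.09 (limma adjusted p = 0.0413). Without the 5 rats of high albumin it was 0.83 (limma adjusted p = 0.0325), without the 3 bright arrays 0.86 (limma adjusted p = 0.0293) and without rat 2F114 0.75 (limma adjusted p = 0.0301). Across single left-out rats its limma adjusted p ran from 0.00492 to 0.0910, and it passed in only 10 of these 24 fits. A second, dimmer probe set for Nckap5l (mean signal 42.8) showed a difference of -0.07, so the call rests on 1 probe set. The log2 ratio of the 3' to the 5' probe set of GAPDH, a sign of RNA quality, was 0.344 ± 0.063 with gentamicin and 0.475 ± 0.206 with tobramycin at day 5 (SD, n = 6 each). At day 1 this ratio was 0.308 ± 0.060 and 0.384 ± 0.143. The highest gentamicin array was at 0.416 and the highest tobramycin array at 0.813. With this ratio as a covariate the limma adjusted p was 0.289 for Hspa5 and 0.185 for Nckap5l, and its part in the result was not tested further. The gene lists below were not fitted with this ratio.

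**Figure D1:**
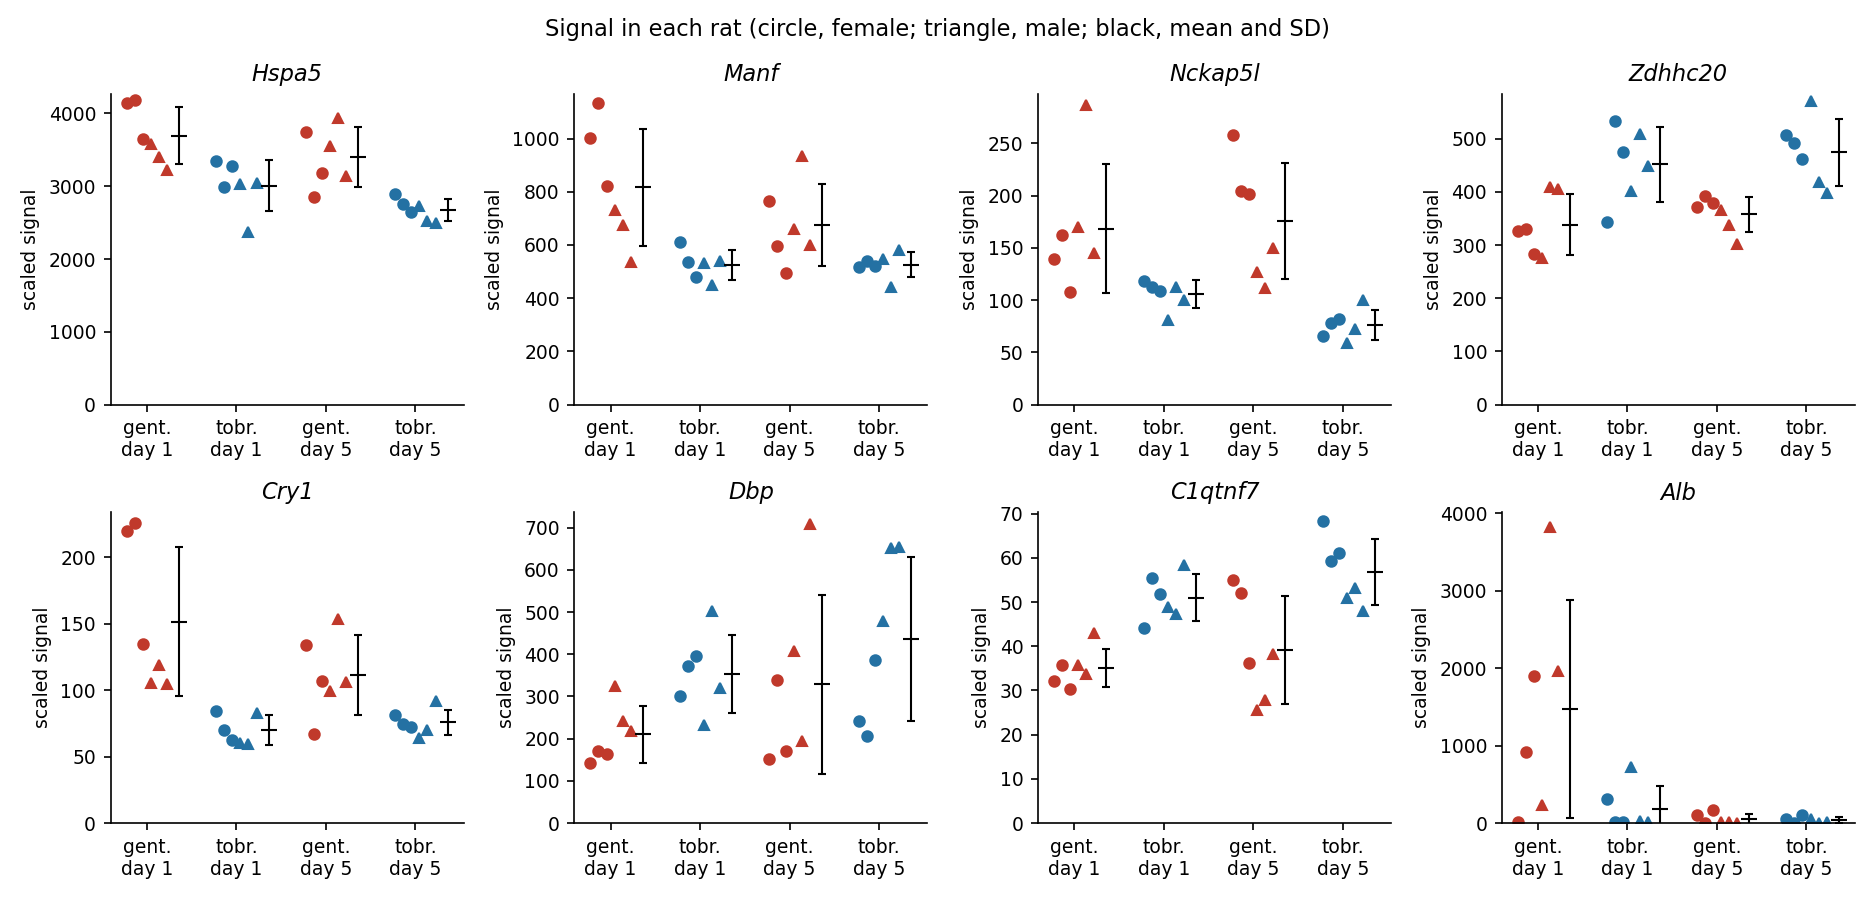
Scaled array signal (linear axes from 0) in each of the 24 rats for 8 genes, with circles for females, triangles for males, red for gentamicin, blue for tobramycin, and black bars for the mean and SD of the 6 rats of a group. Hspa5, Manf, Nckap5l and Cry1 sit higher with gentamicin, Zdhhc20 and C1qtnf7 sit higher with tobramycin, and Alb is over 500 in 4 gentamicin rats and 1 tobramycin rat of day 1.

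Most genes of the ER stress list had a higher estimate with gentamicin on each day. Of its 28 measured genes, 20 had a higher estimate with gentamicin at day 1 (11 higher and 0 lower at an unadjusted p under 0.05), 23 at day 5 (3 and 0) and 23 over both days (9 and 0), and Hspa5 alone passed the adjusted test (1 of 28). The median log2 difference was 0.16, 0.13 and 0.12, against a median over all genes of -0.01, 0.00 and -0.01. The score of the list, for each rat the average of its genes' log2 values after each gene is centred on the 24 arrays, was higher with gentamicin by 0.12 over both days (95% interval 0.03 to 0.20). The score difference was 0.11 at day 1 (95% interval -0.02 to 0.24, which holds 0) and 0.12 at day 5 (95% interval 0.00 to 0.23). With the 5 rats of high albumin left out, 25 of 28 genes were higher over both days (median 0.12; 8 higher and 0 lower at the unadjusted limit), and without the 3 bright arrays 22 of 28 (median 0.11; 9 and 0). Without rat 2F114 it was 24 of 28 (median 0.14; 10 and 0).

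Among the chaperones of the ER, Manf, a BiP-binding protein induced by unfolded proteins, showed the largest difference over both days on this list. Its signal at day 1 was 535.7, 777 and 1135 with gentamicin against 451, 536 and 609.7 with tobramycin, and at day 5 495, 629 and 933 against 440.4, 532 and 582. Most gentamicin rats (11 of 12) lay above the tobramycin median, although the ranges overlapped on each day. The difference over both days was 0.46 ± 0.10 (SE; limma adjusted p = 0.102). Hsp90b1, the ER member of the Hsp90 family, differed by 0.19 over both days, with all 12 gentamicin rats above the tobramycin median. The protein disulfide isomerases Pdia6 and Pdia4 differed by 0.15 and 0.16.

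Creld2 and Xbp1 had larger estimates at day 1 than at day 5. Creld2, another ER protein induced by unfolded proteins, had a signal of 388, 502 and 527 with gentamicin and 283, 299 and 456 with tobramycin at day 1. At day 5 the values were 305, 359 and 375 against 312, 332 and 345. The groups were nearly separate at day 1 and intermixed at day 5. Its difference was 0.51 at day 1 and 0.07 at day 5, and the change between days was -0.44 (95% interval -0.71 to -0.17; limma adjusted p = 0.998). For Xbp1 the difference was 0.31 at day 1 and -0.03 at day 5, with a change between days of -0.34 (95% interval -0.55 to -0.13; limma adjusted p = 0.998). Of the regulators, Atf6 differed by 0.25 ± 0.05 (SE; limma adjusted p = 0.102), with all 12 gentamicin rats above the tobramycin median. A second, dimmer probe set for Atf6 lay the other way, at -0.29 over both days, so its direction rests on 1 probe set. Atf4 differed by 0.34 ± 0.10 (SE; limma adjusted p = 0.233). The genes that carry the promoter element were spread over this range, from 0.12 for Calr and 0.13 for Dnajc3 to 0.32 for Hspa5.

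**Figure D2:**
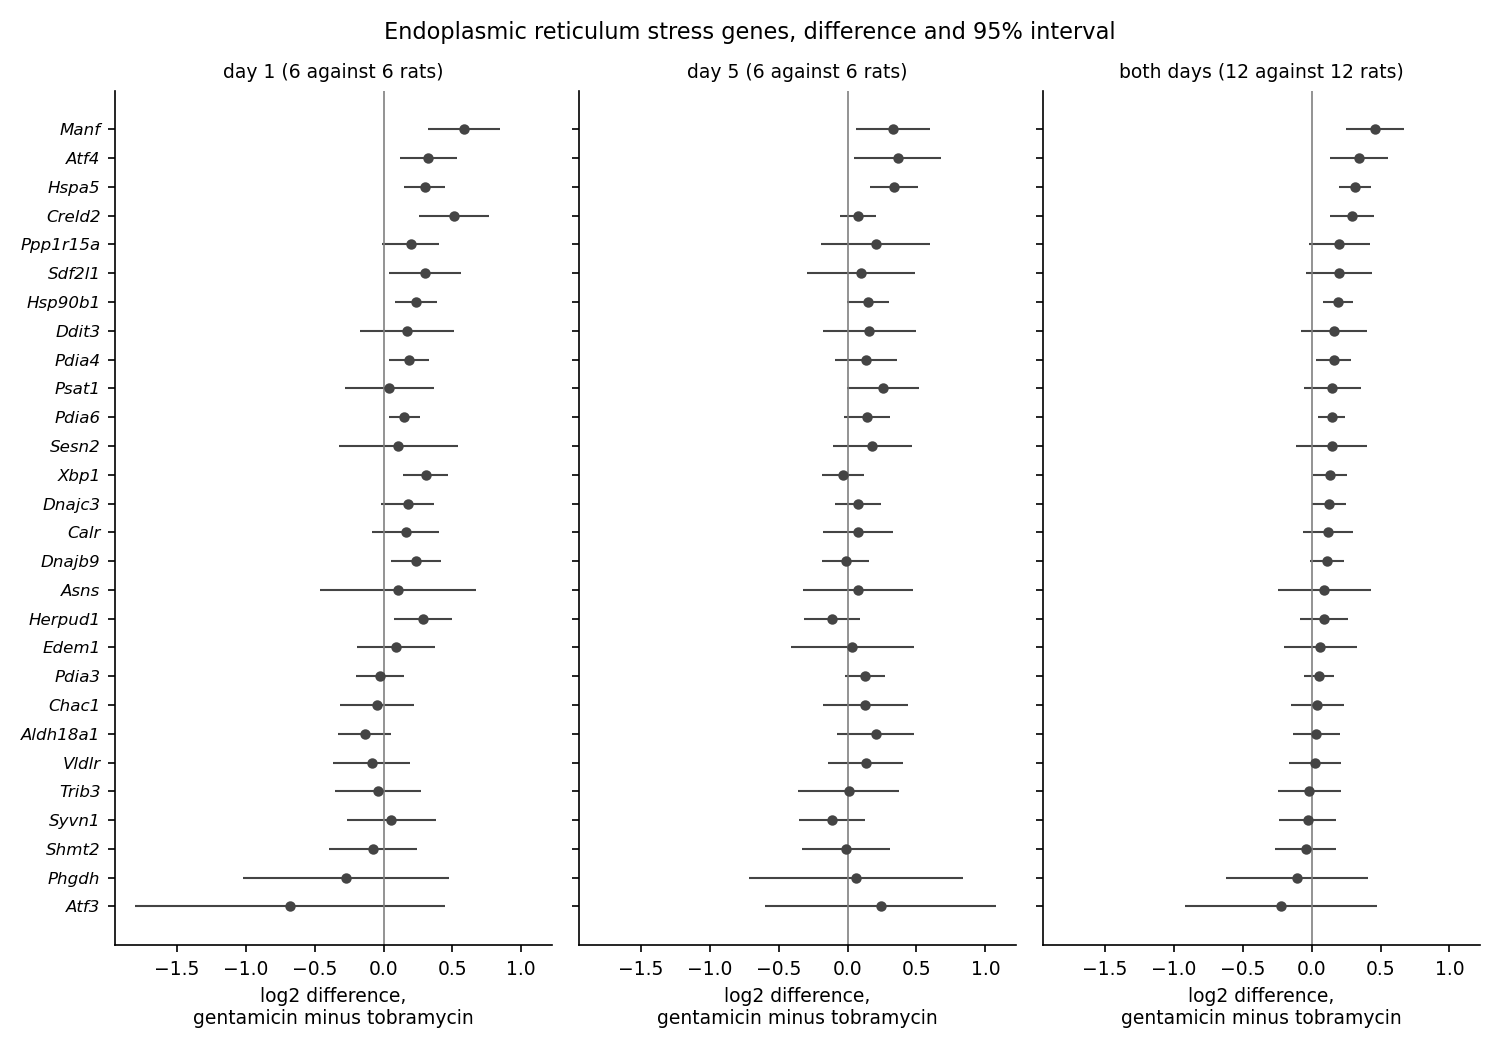
Log2 difference (gentamicin minus tobramycin) with its 95% interval for the 28 measured genes of the ER stress list, at day 1, at day 5 and over both days, on 1 shared axis. Points to the right of 0 are higher with gentamicin: 20, 23 and 23 of the 28 genes, with Manf at 0.59, 0.33 and 0.46.

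Cytosolic heat shock genes had larger estimates at day 1 than at day 5, although the change of the list's score between days was -0.15 with a 95% interval of -0.31 to 0.01, which holds 0. Of 13 measured genes of the heat shock list, 10 were higher with gentamicin at day 1 (6 higher and 0 lower at the unadjusted limit; median 0.24), 7 at day 5 (2 and 0; median 0.03) and 9 over both days (5 and 1; median 0.08), and none passed the adjusted test. Leaving out the 5 rats of high albumin, 9 of 13 were higher at day 1 (median 0.29). Hspa1a, the inducible Hsp70, had a signal of 339, 537 and 802 with gentamicin at day 1 against 218, 389 and 462 with tobramycin, and at day 5 358, 454 and 502 against 336, 431 and 634.5. It differed by 0.55 at day 1 and by -0.03 at day 5, and the ranges overlapped on both days. The small chaperone Hspb1 differed by 0.53 at day 1 and 0.10 at day 5. The co-chaperone Dnaja1 (0.40 and 0.29) and the Hsp110 chaperone Hsph1 (0.38 and 0.28) were above 0 on both days, with 10 and 11 of 12 gentamicin rats above the tobramycin median of their day. Dnaja1 was lowest in tobramycin females 4F132 (972) and 4F129 (987), and Hsph1 in tobramycin male 4M29 (756). The GAPDH ratio of these rats (0.81, 0.57 and 0.56) lay above that of every gentamicin array. Rat 4F132 also had the highest Hsph1 signal of tobramycin at day 5 (1179), and the part of RNA quality was not tested. The 1 gene lower at the unadjusted limit over both days was Hspa4, at -0.26.

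The RNA-binding proteins induced by mild cold, Cirbp and Rbm3, lay the other way. Cirbp had a signal of 149.2, 172 and 239 with gentamicin and 205, 344 and 435 with tobramycin at day 1, and 197, 246 and 397 against 218, 246 and 403 at day 5. The groups lay apart in their medians at day 1 and level at day 5. It differed by -0.80 at day 1 (95% interval -1.13 to -0.48; limma adjusted p = 0.455) and by -0.07 at day 5. This day 1 difference was -1.02 without the 5 rats of high albumin. Rbm3 differed by -0.56 at day 1 and -0.24 at day 5, and over both days none of the gentamicin rats (0 of 12) lay above the tobramycin median (-0.40 ± 0.10, SE; limma adjusted p = 0.109).

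Genes of the circadian clock lay on both sides of 0. The hour of sampling is not in the labels, so the time of day at which each group was killed and the compound cannot be told apart. Cry1, a repressor of the clock, had a signal of 104.6, 127 and 226 with gentamicin against 59.7, 66.0 and 84.0 with tobramycin at day 1, with no overlap. At day 5 it was 67.0, 107 and 154 against 64.3, 73.5 and 91.6, with overlap. Its difference was 0.91 at day 1, 0.44 at day 5 and 0.68 ± 0.13 (SE) over both days, just short of the limit (limma adjusted p = 0.0578). Bmal1, the activator that pairs with Clock, differed by 0.58 over both days and Nfil3, a repressor of the output genes, by 0.46. Dbp, an output gene, differed by -0.60 and Per3 by -0.61, and the Rev-erb repressors Nr1d1 and Nr1d2 by -0.34 and -0.30. Other probe sets for Nr1d2 showed smaller differences, of -0.11 (mean signal 476) and -0.004 (mean signal 36.5).

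In all, 8 of the 18 measured clock genes had a higher estimate with gentamicin over both days, with 4 higher and 4 lower at the unadjusted limit and none past the adjusted test. At day 1 these counts were 3 and 5, and at day 5 3 and 1, where the lower gene was Per1 (-0.55). Dbp had a signal of 142.2, 194 and 324 with gentamicin and 233, 346 and 502 with tobramycin at day 1, and 152, 267 and 707 against 206, 432.5 and 654 at day 5. Its spread at day 5 was wide in both groups and the ranges overlapped on both days.

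**Figure D3:**
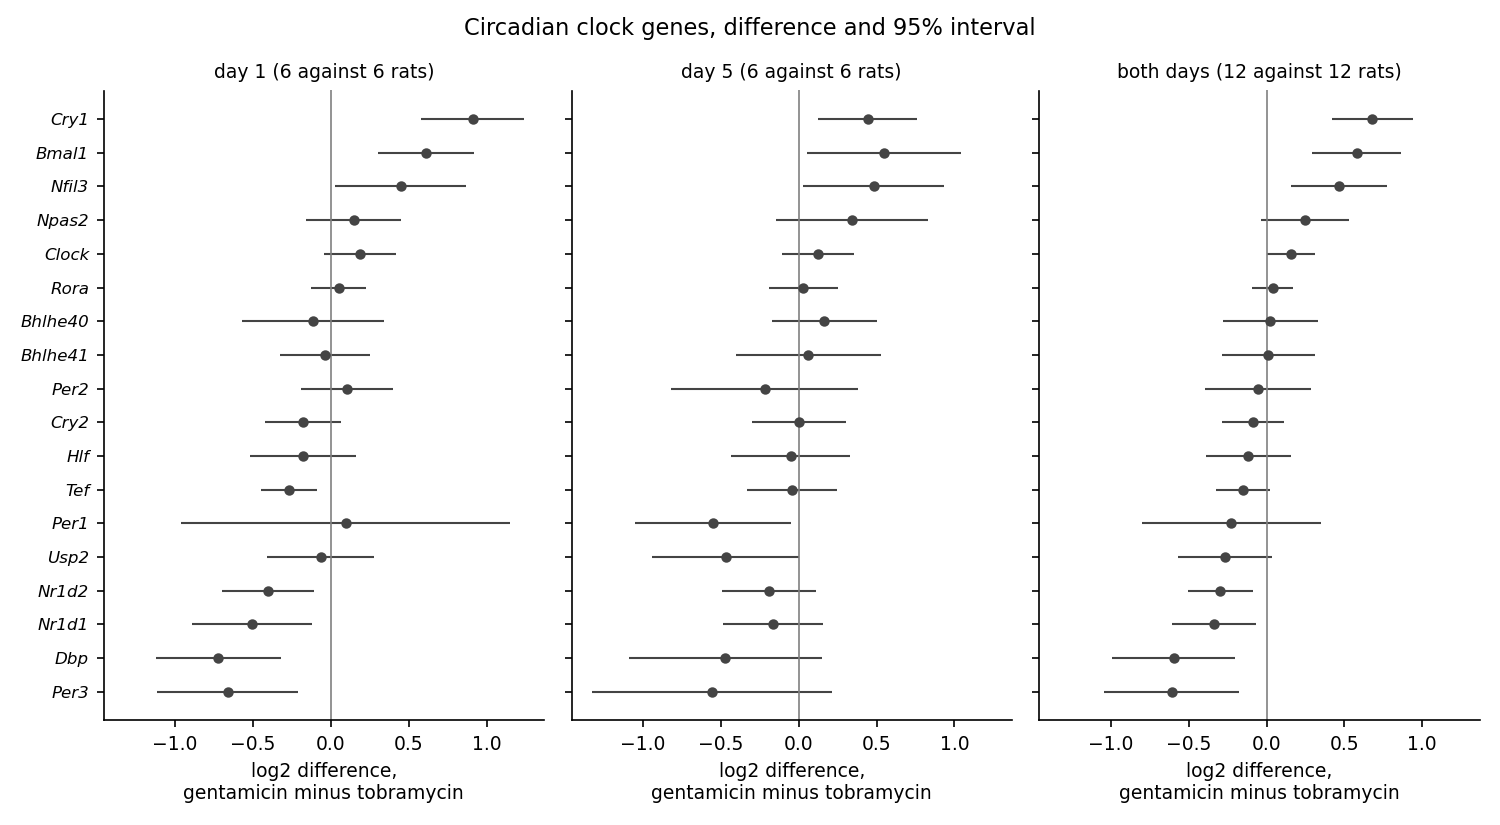
Log2 difference (gentamicin minus tobramycin) with its 95% interval for the 18 measured genes of the clock list, at day 1, at day 5 and over both days. Cry1 (0.68), Bmal1 (0.58) and Nfil3 (0.46) lie right of 0 over both days, and Per3 (-0.61), Dbp (-0.60), Nr1d1 (-0.34) and Nr1d2 (-0.30) lie left of it.

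The genes of aminoglycoside uptake were nearly level between the drugs. Megalin (Lrp2) had a median signal of 5153 with gentamicin and 5481 with tobramycin at day 1, and 5159 and 5402 at day 5. Its difference over both days was -0.06 (95% interval -0.14 to 0.02). That sign turned under quantile normalization. Cubilin (Cubn) differed by 0.03 (95% interval -0.13 to 0.18), and Dab2, the adaptor of megalin, by 0.07 (95% interval -0.15 to 0.28). Of 19 measured genes on the uptake list, 4 were higher with gentamicin at day 1, 12 at day 5 and 8 over both days, with 1 higher (the sorting nexin Snx3) and 1 lower (the recycling adaptor Rab11fip1) at the unadjusted limit over both days. The score of the list differed by -0.01 (95% interval -0.09 to 0.06).

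Lysosomal genes were measured for 33 of the 39 listed. Of these, 11 were higher with gentamicin at day 1, 15 at day 5 and 9 over both days, with medians of -0.07, -0.02 and -0.04 and a score difference of -0.03 (95% interval -0.10 to 0.04) over both days. The lysosomal membrane protein Lamp1 differed by -0.19 at day 1 and 0.10 at day 5, and the protease cathepsin D (Ctsd) by -0.17 and 0.01. Lipa, the acid lipase, differed by 0.15 over both days, and Galc, galactosylceramidase, by -0.14. Pla2g15, the lysosomal phospholipase that aminoglycosides inhibit, differed by -0.10 (95% interval -0.27 to 0.08). On the list of phospholipid breakdown and phosphoinositide signalling, 14 of 22 genes were higher with gentamicin over both days, with a score difference of 0.02 (95% interval -0.02 to 0.07).

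No marker of tubular injury passed the test between the compounds, and their spread between rats was wide. Kim-1 (Havcr1), a membrane protein of injured proximal tubules, had a signal of 28.2, 47.6 and 108 with gentamicin and 12.1, 104.8 and 208 with tobramycin at day 1, and 27.1, 52.5 and 134.5 against 2.34, 30.9 and 79.4 at day 5. The ranges overlapped on both days, with tobramycin higher by the median at day 1 and gentamicin at day 5. The day 1 values split by sex: in females Havcr1 ran from 32.96 to 107.8 with gentamicin and from 166 to 208 with tobramycin, without overlap, and in males from 28.2 to 52.9 and from 12.1 to 44.0 (n = 3 each). Timp1, an inhibitor of matrix proteases, ran in day 1 females from 128.9 to 151.5 with gentamicin and from 195 to 236 with tobramycin, also without overlap. How many of all genes separate in this way among 3 against 3 rats was not counted, so no result is drawn from these ranges. The difference of Havcr1 over both days was 0.12 (95% interval -0.58 to 0.82). Lcn2 differed by -0.14, Clu by -0.06, Spp1 by 0.02 and Timp1 by -0.14, and each interval held 0. Of 25 measured injury genes, 10, 12 and 9 were higher with gentamicin at day 1, at day 5 and over both days, with medians of -0.11, -0.02 and -0.05.

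The fibrinogen genes Fga, Fgb and Fgg, on the injury list, were the members furthest above 0 at day 1, by 0.57, 0.92 and 1.24. They are also made by the liver. When the 5 rats of high albumin were left out, the day 1 differences were 0.37, 0.51 and 0.46, and over both days Fgb was 0.28 instead of 0.55 and Fgg 0.05 instead of 0.55. Fga, which was 134, 248 and 288 with gentamicin and 91.0, 141.7 and 260 with tobramycin at day 1, was 0.38 instead of 0.48 over both days. A second, dimmer probe set for Fga (mean signal 51.3) differed by 0.11 over both days in all rats. Fga and Fgb were also high in some rats of low albumin: gentamicin rat 2F110 had 14.95 for Alb and 88.9 for Fgb. The part of the liver transcripts in the fibrinogen differences was not tested beyond this.

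Most targets of p53 and of Nrf2, the regulator of antioxidant genes, had lower estimates with gentamicin at day 1 and higher ones at day 5. Of 17 p53 targets 5 were higher with gentamicin at day 1 and 14 at day 5, with score differences of -0.06 (95% interval -0.16 to 0.03) and 0.11 (95% interval -0.01 to 0.22). Cdkn1a, the p53-induced cell cycle inhibitor, differed by -0.01 over both days and Ccng1 by 0.03. Of 23 Nrf2 and antioxidant genes 6 and 16 were higher. The change of the score between days was 0.17 for the p53 list (95% interval 0.03 to 0.31). For the Nrf2 list it was 0.10 (95% interval 0.0008 to 0.20). Both intervals leave out 0 and are not adjusted for the number of lists, and no member passed the adjusted test for time. Hmox1, heme oxygenase, differed by 0.16 (95% interval -0.08 to 0.41), and the metallothionein Mt2A by -0.05 (95% interval -0.26 to 0.17).

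No marker of the tubule segments passed the test, and the score interval of each segment's list held 0 on each day and over both days. Of 11 proximal tubule markers 1, 6 and 4 were higher with gentamicin at day 1, at day 5 and over both days. Their day 1 median was -0.13, with 2 lower at the unadjusted limit, and -0.02 with quantile normalization. Of 8 loop of Henle and distal tubule markers 4, 2 and 2 were higher, with 4 lower at that limit at day 5. Of 9 collecting duct markers 6, 1 and 5 were higher. Defining markers of the kidney were bright in all groups: Slc34a1, the proximal phosphate carrier, had group medians from 5352 to 5991, and Umod, the uromodulin of the thick limb, from 5709 to 6420. Over both days Slc34a1 differed by -0.02, and by -0.22 in a second probe set (mean signal 1336). Slc12a1, the sodium-potassium-chloride carrier of the thick limb, had a signal of 3184, 3674 and 3997 with gentamicin and 4127, 4411 and 4987 with tobramycin at day 5, with every tobramycin rat above every gentamicin rat. At day 1 the ranges overlapped, at 3111, 3838 and 4224 against 3384, 4065 and 5660. Its difference was -0.18 at day 1 and -0.27 at day 5 (limma adjusted p = 0.755). Over both days it was -0.23, and -0.15 with quantile normalization. Casr, the calcium-sensing receptor of that segment, differed by 0.12 at day 1 and -0.31 at day 5. Of 20 genes of distal calcium and magnesium handling, 8 were higher with gentamicin over both days, and the tight junction protein Cldn16 (-0.29) and Egf (-0.14) were below 0 while the calcium-binding Calb1 (0.24) was above it.

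Immune genes varied widely between rats, and none passed the test between the drugs. Isg15, an interferon-induced protein, ran from 78.2 to 1758 with gentamicin and from 103.2 to 1985 with tobramycin at day 1. Over both days it differed by -0.02 (95% interval -0.80 to 0.76), and the score of 28 interferon genes by -0.04 (95% interval -0.48 to 0.39). Markers of macrophages and granulocytes were lower with gentamicin in 11 of 12 genes over both days by estimate (1 higher; median -0.10), with 4 below the unadjusted limit at day 1 and none (0) at day 5. Their score over both days differed by -0.10 with a 95% interval of -0.37 to 0.16, which holds 0, and without the 5 rats of high albumin 4 of 12 were higher (median -0.03). Cd74, the invariant chain of class II molecules, differed by -0.28 over both days and RT1-DMb, which loads class II peptides, by -0.35. Among cytokines, the neutrophil chemokine Cxcl1 was dim in both groups, with medians of 34.6 against 16.6 at day 1 and 27.0 against 10.7 at day 5, and 11 of 12 gentamicin rats lay above the tobramycin median (0.56 ± 0.14, SE; limma adjusted p = 0.125). Ccl20, another chemokine, differed by 0.17 at day 1 and 0.90 at day 5 with overlapping ranges.

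The red blood cell markers had lower estimates with gentamicin. None of the 5 measured genes (0 of 5) had a higher estimate over both days, 3 were below the unadjusted limit, and the score differed by -0.30 (95% interval -0.53 to -0.06). The beta globin gene Hbb had a signal of 3072, 4470 and 5453 with gentamicin and 3984, 4684 and 5898 with tobramycin at day 1, and 3218, 3988 and 5735 against 4538, 5051 and 6892 at day 5. The ranges overlapped on both days, and 4 of 12 gentamicin rats lay above the tobramycin median of their day. Alas2, the heme enzyme of red cell precursors, differed by -0.39 over both days. The amount of blood left in each kidney was not recorded in the labels, and its part in these values was not tested.

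Genes of cell division were mostly lower with gentamicin by estimate: 10 of 36 were higher over both days (median -0.09), 0 higher and 6 lower at the unadjusted limit. Their score interval held 0 (-0.21 to 0.03), and without the 5 rats of high albumin 12 of 36 were higher over both days (median -0.04) and 19 of 36 at day 1 (median 0.01). In the respiratory chain 7 of 35 genes were higher (median -0.04; 1 higher and 8 lower at that limit), and of the cytosolic ribosome 7 of 27 (median -0.05). With quantile normalization the medians of the last 2 lists turned to 0.01 and 0.02, so no direction is given for them. Endothelial markers leaned lower (2 of 9 higher; score -0.09, 95% interval -0.19 to 0.00), with Pecam1, an endothelial adhesion protein, at -0.18. Sox18, an endothelial transcription factor, lay the other way at 0.47 ± 0.10 (SE; limma adjusted p = 0.102).

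**Figure D4:**
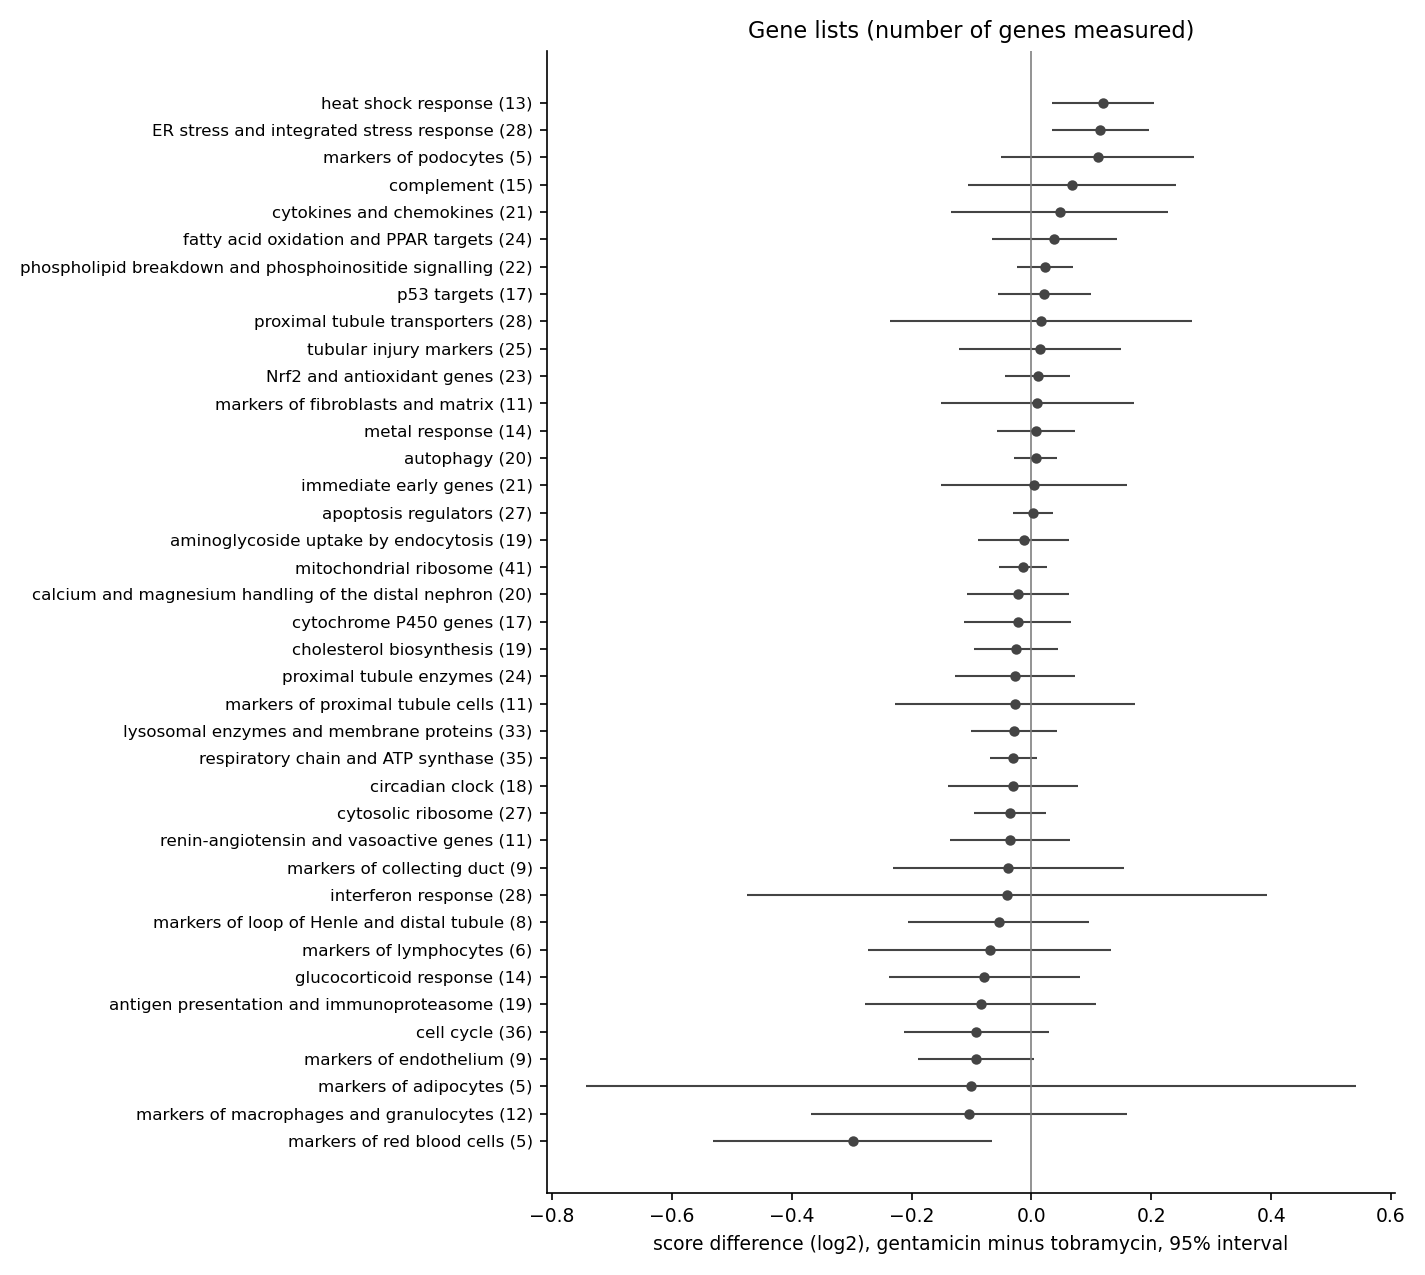
Difference between the compounds over both days in the score of each gene list (the average of its genes' centred log2 values), with its 95% interval and the number of genes measured. The heat shock and ER stress lists lie right of 0 with intervals that leave it out, the red blood cell markers lie left of 0 at -0.30 (-0.53 to -0.06), and the interferon list spans -0.48 to 0.39. Apart from the heat shock, ER stress and red blood cell lists, every interval holds 0. No interval is adjusted for the number of lists.

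Among the genes with the smallest p over both days, those lower with gentamicin were led by C1qtnf7, a secreted protein of the C1q and TNF family, and Zdhhc20, an enzyme that attaches palmitate to membrane proteins. Zdhhc20 had a signal of 276, 328 and 409 with gentamicin and 344, 461.5 and 533 with tobramycin at day 1, and 302, 369 and 391.9 against 398, 477 and 570 at day 5. The groups did not overlap at day 5, and on both days no gentamicin rat (0 of 12) reached the tobramycin median. It differed by -0.39 ± 0.08 (SE; limma adjusted p = 0.0719). C1qtnf7 was dim, at medians of 34.7 against 50.4 at day 1 and 37.3 against 56.2 at day 5, and did not overlap at day 1 (-0.41 ± 0.08, SE; limma adjusted p = 0.0665). The next in that direction were Cep57, Gng11, Cyb561a3, Nudt13, Glycam1 and AKR1C3l1, with differences from -0.20 to -0.43 and limma adjusted p from 0.102 to 0.109. In the other direction Aebp2 (0.24), Rbm4b (0.25) and Casc3 (0.35) followed Cry1 and Sox18, each with a limma adjusted p of 0.102. Other, dimmer probe sets showed smaller differences for Aebp2 (0.03, 0.09 and 0.11) and Casc3 (0.01 and 0.29). A dimmer probe set for Gng11 lay the other way from the one used, at 0.08.

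The differences of the 2 days, which share no rat, ran the same way more often than not. Across 11415 genes, which are not independent replicates, Pearson's r was 0.177 and 58.6% had the same sign. Of the 826 genes under the unadjusted limit at day 1, 594 (71.9%) had the same sign at day 5. Under that limit on both days were 76 genes, of which 72 had the same sign, 47 higher and 25 lower with gentamicin. Without the 5 rats of high albumin r was 0.294 and 60 of 65 such genes had the same sign, and without the 3 bright arrays 65 of 76. With single rats left out r ran from 0.0444 (without tobramycin rat 4M29 of day 1) to 0.267 (without tobramycin rat 4F128 of day 1). The GAPDH ratio was 0.56 in 4M29 and 0.30 in 4F128. Its mean was higher with tobramycin than with gentamicin on both days, and its part in this agreement was not tested.

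**Figure D5:**
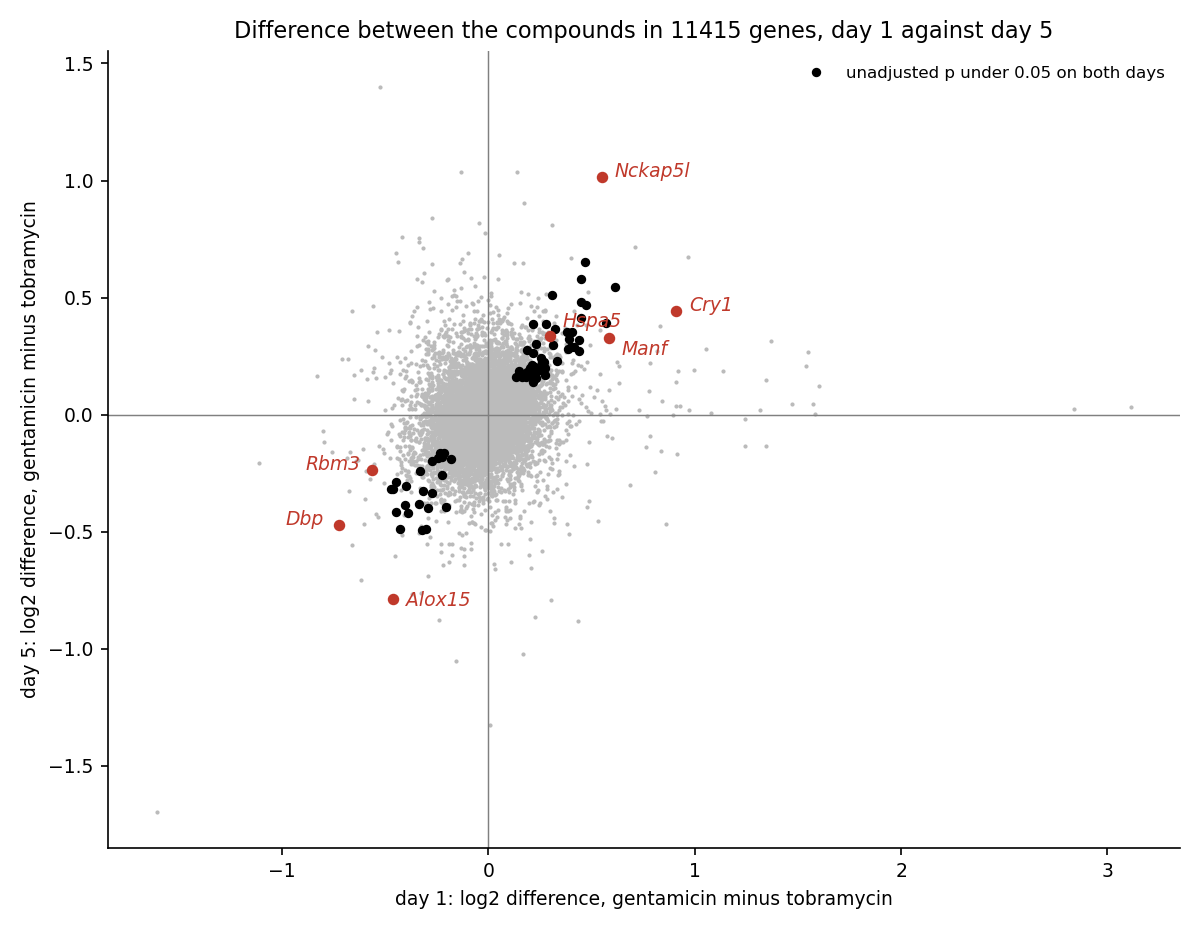
Log2 difference (gentamicin minus tobramycin) of each of 11415 genes at day 1 (horizontal) against day 5 (vertical), with black points for genes of unadjusted p under 0.05 on both days and the same sign, and red points for named genes. Nckap5l lies at 0.55 and 1.02, and the grey points that run to the right along the horizontal axis at day 1 include the liver transcripts, up to 3.11 for Alb.

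Whether the difference between the drugs itself changed with time or differed by sex was tested by interaction terms. No gene passed for time (0%; 402 at an unadjusted p under 0.05, smallest adjusted p 0.998 with limma) and none for sex (0%; 537 at that limit, smallest adjusted p 0.921 with limma). Fkbp5, a gene induced by glucocorticoids, had one of the smallest p values for time: it was 192, 223 and 291 with gentamicin against 126, 166 and 266 with tobramycin at day 1, and 118, 162 and 266 against 190, 293 and 509.5 at day 5. It was higher by the median with gentamicin at day 1 and lower at day 5, with overlap on both days (change of -1.09, 95% interval -1.67 to -0.51). For sex, 24 of 25 injury genes had an estimate above 0, that is, a larger gentamicin minus tobramycin value in males, against 56.9% of all genes. Their score differed by 0.36 (95% interval 0.14 to 0.58), with none past the adjusted test. Most genes of some other lists also lay above 0: 27 of 28 interferon genes (score 0.37, 95% interval -0.51 to 1.24) and 23 of 27 of the cytosolic ribosome (score 0.06, 95% interval -0.06 to 0.18). Of 28 proximal tubule transporters 6 lay above 0 (score -0.41, 95% interval -0.89 to 0.07). The score intervals of these other lists held 0.

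Within each drug, 1 gene passed between day 5 and day 1, with no saline rats to remove changes that untreated animals would share. With gentamicin (0.00876% of genes) it was Sult1a1, a phenol sulfotransferase, which fell by 0.54 on the log2 scale (SE 0.06; limma adjusted p = 0.00509), from 526, 682 and 905 at day 1 to 349.5, 490 and 607 at day 5. Under the unadjusted limit 281 genes (2.46%) were higher and 214 (1.87%) lower at day 5. With tobramycin (0.00876%) it was Noct, a clock-controlled phosphatase, which rose by 0.68 (SE 0.09; limma adjusted p = 0.0250), from 143, 158.7 and 173.5 to 211, 262 and 297, with no overlap. There 218 genes (1.91%) were higher and 201 (1.76%) lower at the unadjusted limit. In the other drug Sult1a1 changed by 0.00 (95% interval -0.59 to 0.58) and Noct by 0.03 (95% interval -0.52 to 0.59). The difference of these changes between the drugs was -0.54 for Sult1a1 and -0.64 for Noct, and neither passed its own test (limma adjusted p = 0.998 for both). Both calls were lost without the 5 rats of high albumin. Of the gentamicin rats of day 1 only 2F110 and 2M10 stay in that fit, and of the tobramycin rats 4M28 alone is left out. The Noct call was also lost when any 1 of 11 of the 12 tobramycin rats was left out.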

How the data were processed

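Expression was measured on 1-colour Affymetrix rat arrays. The deposited values were MAS5 linear intensity values per probe set, per the submitters' processing notes; no genome build was needed or used for them. Each of the 89 arrays was scaled to 1 common mean signal after trimming 2% (180.9), and log2(signal + 16) was taken. For each gene the probe set of highest mean log2 was kept, and genes over the 40th percentile (signal 33.2) in at least 5 arrays were tested: 11415 genes of 14217 with a single name. Of 31099 probe sets, 436 had several gene names and 9780 none in the platform annotation, and these were left out. limma 3.58.1 in R 4.3.3 (lmFit, eBayes with trend and robust) was fitted with sex, and with day over both days, on the arrays compared only, with Benjamini-Hochberg adjustment; the method was tested on simulated data. A fold change is on the log2(signal + 16) scale and understates that of dim genes. The number of arrays limits the precision: the median distance from an estimate to its interval's end was 0.23 within 1 day and 0.16 over both days. Labels name separate rats. Sequences came from RefSeq (GRCr8). The gene lists, members and named genes were chosen with earlier results of these data known. Named genes were the smallest p values per comparison, 2 genes per list, a fixed panel, and further genes chosen after their values were seen. Alternatives tried were scaling, pseudocount, filter, probe set choice, array weights, covariates and leaving out rats.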

Additional observations from a re-analysis of the deposited data

Results flagged for a closer look

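In 236 groups of 6 rats (50 genes and 9 list scores), 7 held 1 rat far from the other 5 by Dixon's criterion, which chance meets in about 1 of 20 groups. Hspa5 was lowest in tobramycin rat 4M29 of day 1, at 2368, with the others from 2991 to 3341. Without this rat the difference over both days was 0.29 (limma adjusted p = 0.0690). Atf4 was lowest in tobramycin rat 4M33 of day 5, at 938, with the others from 1108 to 1205. Creld2 was lowest in gentamicin rat 2M11 of day 1, at 388, with the others from 474 to 527. Hspa1a was lowest in tobramycin rat 4M28 of day 1, at 218, with the others from 371.5 to 462. Sult1a1 was highest in tobramycin rat 4M33 of day 5, at 1109.5, with the others from 428 to 510.4. Ahsp, a red cell gene, was lowest in gentamicin rat 2M15 of day 5, at 1.27, with the others from 10.4 to 16.9. Dmrtc1c1 was highest in gentamicin rat 2M13 of day 5, at 919, with the others from 19.7 to 70.7.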

How the results depend on the processing

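No comparison had a result that turned its direction after passing the test. The count of genes that passed over both days (2) was 2009 without scaling of the arrays, 12 at most and 0 at least with 1 rat left out, 6 with array quality weights, 6 without rat 2F114, 1 with the log2 trimmed mean as a covariate, 1 without the 5 rats of high albumin, and 0 with all probe sets, with no sex term, with eBayes without trend and robust, and with the GAPDH ratio as a covariate. In those last 4 settings the limma adjusted p of Nckap5l was 0.0553, 0.0529, 0.0558 and 0.185, and that of Hspa5 0.0553, 0.0761, 0.0558 and 0.289. The larger counts came without tobramycin rats 4M33 (12) and 4F128 (7) and gentamicin rats 2F114 (6) and 2M12 (5). At day 1 the count was 23 without scaling and 0 to 1 with 1 rat left out (1 without 4M28). At day 5 it was 19 without scaling, 1 with array weights and 0 to 3 with 1 rat left out (3 without 4M33). Both interaction tests stayed at 0 with 1 rat left out. Within gentamicin the count was 23 without scaling, 0 with no sex term, 0 with all 24 arrays in the fit, 0 without the bright arrays, 0 without the rats of high albumin, and 1 to 2 with 1 rat left out (2 without 2M11). Within tobramycin it was 0 without scaling, 0 with the GAPDH ratio, 0 with all 24 arrays, 0 without the rats of high albumin, and 0 to 1 with 1 rat left out. The r between days was 0.294 without the rats of high albumin and 0.0444 to 0.267 with 1 rat left out. Without scaling the median of all genes shifted by 0.34 at day 1, 0.26 at day 5 and 0.30 over both days, and 99.9% of genes under the unadjusted limit over both days were higher with gentamicin, against 51.5% with scaling. Relative to that shift the medians over both days of the ER stress, heat shock and red blood cell lists were 0.16, 0.11 and -0.28 without scaling, and 0.14, 0.13 and -0.24 with quantile normalization. Leaving out the bright arrays or the rats of high albumin, and the trimmed mean covariate, were chosen after seeing the data; the cause of each change was not tested. No paired analysis was possible because rats of the 2 compounds share no replicate numbers.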

Other observations

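Dmrtc1c1 was either near background or bright. Its signal passed 500 in 6 of the 24 rats, all of them male: 5 of 6 tobramycin males, from 805 to 1675, and 1 of 6 gentamicin males, at 919. In the other males it was at most 23.7 and in females at most 70.7. Over both days it differed by -1.65 (95% interval -2.98 to -0.32; limma adjusted p = 0.369), one of the 3 estimates past 2-fold.

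Alox15, a lipoxygenase, was below the tobramycin median in all 12 gentamicin rats (0 above). Its signal was dim, with medians of 25.1 against 39.5 at day 1 and 23.1 against 41.8 at day 5 (-0.62 ± 0.15, SE, over both days; limma adjusted p = 0.109). Socs3, a feedback inhibitor of cytokine signalling, differed by 0.01 at day 1 and 0.52 at day 5 (95% interval 0.26 to 0.77; limma adjusted p = 0.755), with medians of 42.6 against 23.9 at day 5.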
